A study of Mus musculus with 11 samples.

Results

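The forebrain patterning factors described here are 9 transcription factors, Six3, Six6, Otx1, Otx2, Emx1, Emx2, Lhx2, Dmrta2 and Pax6, out of 27687 genes in a table of read counts from mouse high-grade gliomas. They were taken by gene symbol as factors that pattern the embryonic forebrain, and selected on their measured levels in these tumours, where Dmrta2 and Six3 moved in opposite directions. The difference between knockdown and control that chose them is therefore given as a description, with no test. RNA was sequenced from 9 tumours with prolonged Ezh2 knockdown, called knockdown 1 to 9, and from 2 control tumours, called control 1 and control 2. Both groups grew from cultured neural stem cells of 7-day-old mice of a compound conditional p53;Ink4a/Arf;Krasv12;LucR strain. The cells came from the subventricular zone and were recombined in culture with a lentivirus that carries Cre under the CMV promoter. Both groups also carried the hairpin construct FH1-tUTG-shEzh2, which doxycycline switches on. The cells were sorted for GFP and injected into the brains of NOD-SCID mice, which lack mature T and B lymphocytes but keep other immune cells. The labels give doxycycline hyclate at 2 mg/ml with 1% sucrose in the drinking water for every tumour, whereas the design text says that mice had the drug or not. Whether the control mice drank it is thus not settled, so effects of doxycycline and of the hairpin cannot be told apart.

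Ezh2 is the methyltransferase of the Polycomb repressive complex PRC2, which places a repressive mark on histone H3 and is known for silencing developmental transcription factor genes outside the regions that use them. The 9 factors divide the anterior neural tube into territories. Six3 and Six6 belong to the most anterior neural plate, the eye and the hypothalamus, Otx1 and Otx2 set up the forebrain and midbrain, and Emx1, Emx2, Lhx2, Dmrta2 and Pax6 work in the progenitors of the cerebral cortex.

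The libraries held between 11209233 and 18638382 counts, and 16241 genes passed the filter on low counts. Ezh2 itself averaged 16.2 ± 8.68 CPM (counts scaled to library size, SD, n = 9) in knockdown tumours, against 49.0 ± 5.21 CPM (SD, n = 2) in controls. Its log2 fold change was -1.59 ± 0.44 (SE), with an adjusted p of 0.023 in edgeR's quasi-likelihood test. In an exact two-sided permutation test p was 0.018, the smallest that 55 splits of 9 against 2 allow. The controls stood apart from the knockdown tumours on the first principal component, which carried 37% of the variance, and knockdown 7 and knockdown 9 lay at one end of the second. Knockdown and control differed in 23.3% of the 16241 genes at an adjusted p under 0.05, with 10.3% higher and 13.0% lower in knockdown, and the values of the groups did not overlap in 27.2%. Separate cell preparations are not named in the labels, so a p-value here covers the spread among these tumours alone, and that spread may be technical. In whole tumours, fewer cells of a type and less RNA per cell cannot be told apart.

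The promoter sequences of 8 of the 9 factors were found in RefSeq's annotation of GRCm38.p6, as 13 windows of 300 bases around annotated transcription starts; Otx1 was not among them. Those of Six3, Dmrta2 and Emx2 follow, 5′ to 3′ on the strand of the gene, with every CG dinucleotide in capitals, since promoters rich in CG are known targets of PRC2. Six3 (chr17:85620584-85620883, plus strand) and Dmrta2 (chr4:109977775-109978074, plus strand) are shown because their levels separated knockdown from control tumours in opposite directions. Emx2 (chr19:59458440-59458739, plus strand) is shown as a cortical factor whose levels did not separate them.
Six3: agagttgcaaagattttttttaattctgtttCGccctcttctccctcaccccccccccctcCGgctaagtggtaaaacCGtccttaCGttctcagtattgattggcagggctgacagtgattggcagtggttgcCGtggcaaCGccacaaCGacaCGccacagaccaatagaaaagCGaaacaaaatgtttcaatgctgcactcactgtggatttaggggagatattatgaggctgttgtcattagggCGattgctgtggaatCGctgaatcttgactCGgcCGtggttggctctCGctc
Dmrta2: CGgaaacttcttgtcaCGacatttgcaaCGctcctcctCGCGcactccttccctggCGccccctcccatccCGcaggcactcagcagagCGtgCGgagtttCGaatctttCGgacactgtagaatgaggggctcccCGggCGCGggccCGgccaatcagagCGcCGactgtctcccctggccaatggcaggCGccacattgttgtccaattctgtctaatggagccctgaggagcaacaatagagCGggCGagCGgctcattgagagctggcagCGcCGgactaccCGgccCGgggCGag
Emx2: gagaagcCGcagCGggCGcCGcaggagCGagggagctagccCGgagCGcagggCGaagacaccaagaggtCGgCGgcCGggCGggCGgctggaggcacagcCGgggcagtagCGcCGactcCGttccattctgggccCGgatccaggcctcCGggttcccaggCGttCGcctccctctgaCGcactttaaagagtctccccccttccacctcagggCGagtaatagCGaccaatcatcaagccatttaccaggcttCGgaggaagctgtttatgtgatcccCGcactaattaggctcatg
The Six3 window held 14 CG dinucleotides, and 36.3% of all 32851 promoter windows held as many or more. Dmrta2 and Emx2 had 26 each, a number reached by 16.9% of all windows, where the median was 7. Across the factors the count ran from 6 in a window of Otx2 to 37 in Emx1. The homeodomain core TAATTA, which reads the same on both strands, was present in 3 of the 13 windows, 2 of them of Otx2 and the other of Emx2, and in 5.29% of all windows. The letters in these windows describe the sequence only and do not show that a factor binds there.

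The 9 factors covered a wide range of abundance. Divided by exon length, the knockdown tumours had means of 6.61 ± 4.04 CPM per kb (SD, n = 9) for Lhx2, 5.55 ± 0.315 for Dmrta2, 4.66 ± 1.36 for Emx2 and 2.87 ± 0.747 CPM per kb for Pax6. The place of Lhx2 before Dmrta2 rests on knockdown 4, since without it Lhx2 averaged 5.43 and Dmrta2 5.56 CPM per kb. The levels of these 4 cortical factors overlapped between neighbours in that order. All 4 stood above Otx1, at 0.466 ± 0.191 CPM per kb, and Otx2, Six3, Emx1 and Six6 came last, between 0.12 and 0.00531 CPM per kb. In control tumours the order was different, with Emx2 at 7.54 ± 5.24 CPM per kb (SD, n = 2), Pax6 at 3.5 ± 1.13, Lhx2 at 2.08 ± 1.98 and Dmrta2 at 0.687 ± 0.0327 CPM per kb. The place of Emx2 rests on control 1, since in control 2 Emx2 was at 3.84 and Pax6 at 4.30 CPM per kb. Likewise, Lhx2 stood above Dmrta2 only in control 2. In control 1 Lhx2 was at 0.682 and Dmrta2 at 0.71 CPM per kb. The mean of Six3 was 0.359 ± 0.0286 CPM per kb and that of Otx1 0.375 ± 0.27 CPM per kb, but their order differed between the controls. Six3 was at 0.339 and Otx1 at 0.184 CPM per kb in control 1, against 0.379 and 0.566 CPM per kb in control 2.

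**Figure D1:**
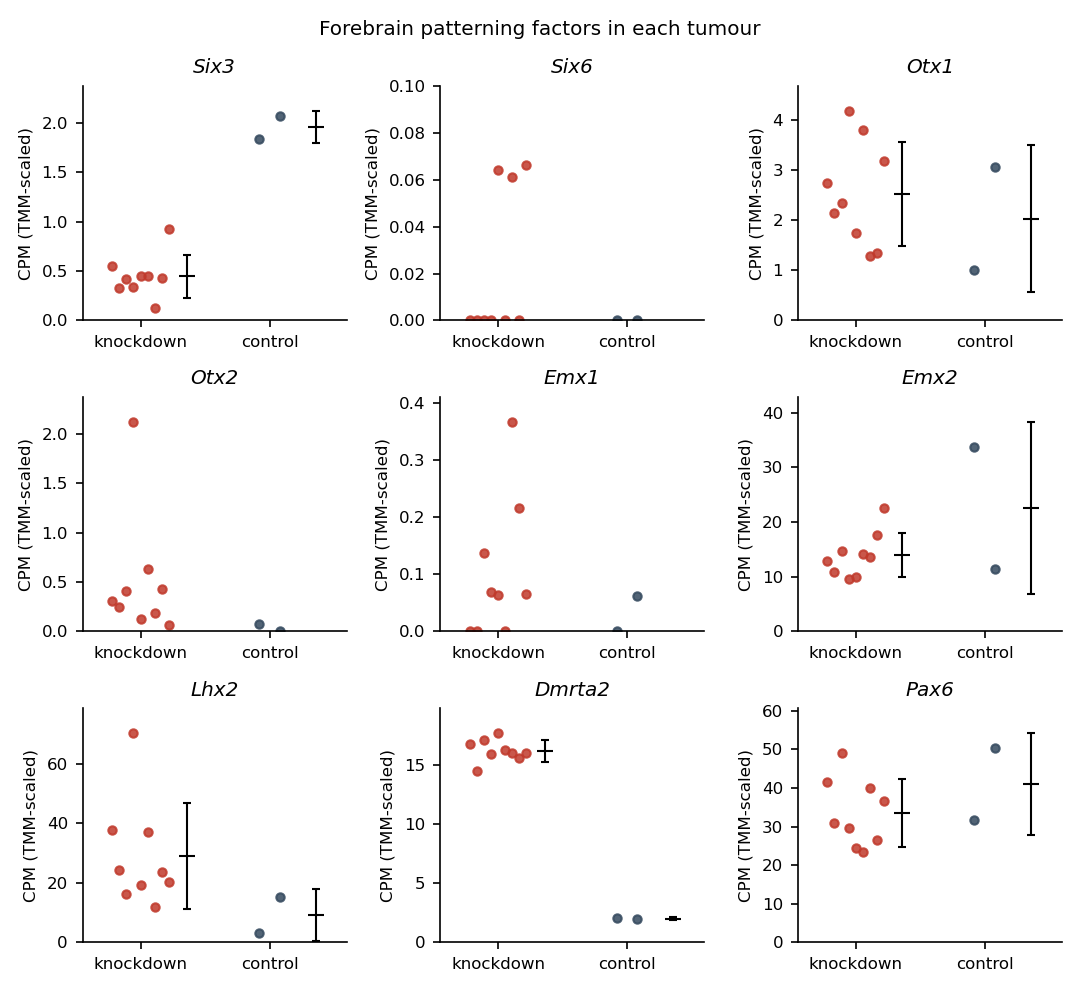
CPM (TMM-scaled) of each of the 9 factors, with 1 dot per tumour, 9 knockdown tumours on the left and 2 controls on the right of each panel. Bars are mean ± SD, left out where a control was at 0 counts; Dmrta2 lies between 14.5 and 17.7 CPM in knockdown tumours and at 2.08 and 1.94 CPM in controls, and Six3 is lower in every knockdown tumour than in both controls.

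Dmrta2 (also Dmrt5, ENSMUSG00000047143, mm9 chr4:109650658-109656292) encodes a DM-domain transcription factor needed for the cortical hem and the caudomedial cortex. It had 14.5 CPM in the lowest knockdown tumour, 16.0 CPM at the median and 17.7 CPM in the highest, against 2.08 and 1.94 CPM in the controls. All 9 knockdown tumours were above both controls, with a gap far wider than the spread of either group. The log2 fold change was 3.01 ± 0.17 (SE), or 8.05-fold higher in knockdown, on 176 to 290 counts a tumour in knockdown and 27 and 31 counts in the controls. It lay between 2.96 and 3.06 when any 1 library was left out. Among the other gene models next to it, Faf1, which encodes a Fas-binding adaptor and ends 14093 bases before Dmrta2, averaged 57.6 ± 7.54 CPM in knockdown, against 54.5 and 60.0 CPM in the controls. Its groups overlapped, and edgeR gave an adjusted p of 0.98 for a log2 difference of 0.01 ± 0.15. The antisense model 3010003L10Rik, 240 bases from Dmrta2, differed by 1.41 ± 0.60 on the log2 scale (edgeR adjusted p = 0.11), on 4 to 13 counts in knockdown tumours and 1 and 6 counts in controls. The summed level of 7 markers of cortical excitatory neurons ran from 34.0 to 74.2 CPM in knockdown tumours, against 29.5 and 20.0 CPM in controls, while Dmrta2 varied 1.22-fold among the same knockdown tumours. The summed level of 8 neural stem cell and radial glia markers, most of it Vim, went the other way. It lay at 2218 to 3796 CPM in knockdown tumours, against 7260 and 6373 CPM in controls. The part of the cells of either list in the Dmrta2 difference was not tested.

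Six3 (ENSMUSG00000038805, mm9 chr17:86012948-86031153) encodes a sine oculis homeodomain factor that keeps Wnt signalling out of the anterior neural plate and sets up the eye field. It had 0.122 CPM in the lowest knockdown tumour, 0.431 CPM at the median and 0.928 CPM in the highest, against 1.84 and 2.07 CPM in the controls. Every knockdown tumour was below both controls. The log2 fold change was -2.11 ± 0.43 (SE), or 4.33-fold lower in knockdown, and it lay between -2.32 and -2.01 with any 1 library left out. These values rest on 2 to 14 counts in a knockdown tumour, 58 in all 9, and on 24 and 33 counts in the controls. The summed level of 8 neural stem cell and radial glia markers was also lower in knockdown, at 2218 to 3796 CPM, against 7260 and 6373 CPM in controls. Vim made up most of these sums, at 1710 to 3365 CPM in knockdown and 4946 and 5131 CPM in controls. Of the 7 tested markers 3 were called lower and none higher, and not all 7 had a negative log2 fold change. The part of these cells in the Six3 difference was not tested. Six6, a related factor of the retina, pituitary and hypothalamus, was at or under the floor of 3 counts a library, with 1 count each in knockdown 5, 7 and 9 and 0 in both controls, so no fold is given. 4930447C04Rik, which overlaps the Six6 model by 1110 bases, lay between 0 and 7.76 CPM in knockdown tumours, with 1 and 0 counts in controls (log2 difference 5.27 ± 2.70, edgeR adjusted p = 0.18). Knockdown 7 and knockdown 9 held 84 and 117 of its 233 knockdown counts, and no other tumour had more than 12.

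Six3 shares its locus with long noncoding RNA models. Six3os1.1 (ENSMUSG00000093460, mm9 chr17:85999543-86018751) overlaps the Six3 model by 5804 bases and lies on the opposite strand in GENCODE M21. It fell to between 2.32 and 12.4 CPM in knockdown tumours (7.36 ± 2.85, SD, n = 9), against 42.4 and 38.1 CPM in controls. Every knockdown tumour was again below both controls, 5.47-fold lower or -2.45 ± 0.36 in log2 (edgeR adjusted p = 0.0009). Per exon length the noncoding model stood 7.56 times above Six3 in knockdown and 9.43 times in controls. A second model, Six3os1 (mm9 chr17:85999991-86017736), lies within the span of Six3os1.1 and overlaps Six3 by 4789 bases. It had 4 counts over the knockdown tumours, against 4 and 6 counts in the controls. Reads in bases that it shares with another model may not have been assigned to it, so these counts do not give its level. The sources used here do not give whether reads were counted by strand, so reads in the shared bases cannot be assigned to one gene, and the values of Six3 and Six3os1.1 are not independent of each other. Six2, a related homeodomain gene 52455 bases from Six3 that is known from kidney progenitors, averaged 8.12 ± 4.47 CPM in knockdown, against 14.8 and 10.95 CPM in controls. Its groups overlapped, and the log2 difference of -0.67 ± 0.62 did not pass (edgeR adjusted p = 0.46).

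**Figure D2:**
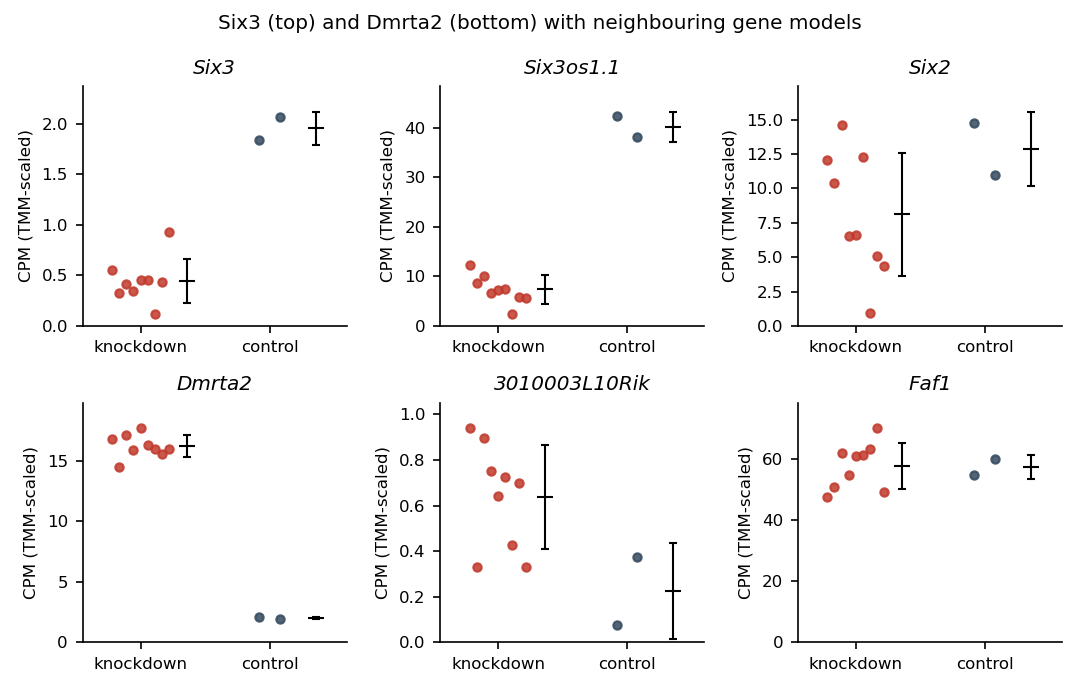
CPM (TMM-scaled) of Six3 with its neighbours Six3os1.1 and Six2, and of Dmrta2 with 3010003L10Rik and Faf1, 1 dot per tumour, 9 knockdown tumours left of 2 controls, bars mean ± SD. Six3 and Six3os1.1 are lower in all 9 knockdown tumours than in both controls, and Faf1 overlaps between the groups.

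Lhx2 (mm9 chr2:38194801-38225253) encodes a LIM-homeodomain factor that selects cortical over hem identity and is also needed for the eye. It had 12.02 CPM in the lowest knockdown tumour, 23.6 CPM at the median and 70.3 CPM in the highest, against 3.00 and 15.3 CPM in the controls. Of the 9 knockdown tumours 8 were above both controls and 1 lay between them. The log2 fold change of 1.66 ± 0.71 (SE) depends on the controls, which were 5.09-fold apart: it was 0.92 without control 1 and 3.27 without control 2. Gm13584, an antisense model that overlaps Lhx2 by 4401 bases, had 34 counts over the 9 knockdown tumours and 1 and 0 counts in the controls.

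Emx2 (mm9 chr19:59533180-59539847) encodes a homeodomain factor of the caudomedial cortex and the hippocampus. It had 9.65 CPM in the lowest knockdown tumour, 13.6 CPM at the median and 22.5 CPM in the highest, against 33.7 and 11.5 CPM in the controls. None of the knockdown tumours was above both controls, 6 lay between them and 3 were below both. Its direction turned with the control used, since the log2 fold change of -0.69 ± 0.36 (SE) was 0.28 without control 1 and -1.27 without control 2. Emx2os, an antisense RNA 55 bases away, averaged 5.26 ± 1.13 CPM in knockdown, against 9.76 and 4.76 CPM in controls, with the higher value in the same control as Emx2 (log2 fold change -0.46 ± 0.30, edgeR adjusted p = 0.28). Emx1, the related factor of the dorsal telencephalon, had 15 counts over the knockdown tumours, in 6 of the 9, and 0 and 1 count in the controls. The ratio of its levels per library size was 3.33, with a 95% exact interval of 0.512 to 140.1 that covers counting error only.

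Otx1 (mm9 chr11:21894767-21902900), an orthodenticle-type homeodomain factor used in cortical and sensory development, had 1.28 CPM in the lowest knockdown tumour, 2.34 CPM at the median and 4.18 CPM in the highest, against 0.999 and 3.07 CPM in the controls. The groups overlapped, with 3 knockdown tumours above both controls and 6 between them. The log2 fold change was 0.30 ± 0.52 (SE), -0.28 without control 1 and 1.32 without control 2. Otx2, which specifies the forebrain and midbrain and later the choroid plexus and photoreceptors, had 65 counts over the knockdown tumours, with 1 to 31 in each, against 1 and 0 counts in the controls. The ratio of levels was 14.4 (95% exact interval 2.5 to 578), and 8.49 (1.42 to 345) without knockdown 4, which held 31 of the 65 counts at 2.12 CPM. These intervals cover counting error only, not the spread between tumours. The 8 choroid plexus markers summed to between 45.3 and 327 CPM in knockdown tumours, against 135 and 187 CPM in controls, and none of the 8 was at 0 in every tumour. Aqp1 made up most of these sums, and knockdown 4 had the lowest sum and the lowest Aqp1, at 28.5 CPM. Folr1 at 5.0, Slc4a5 at 8.15 and Clic6 at 2.6 CPM of the same list were higher in knockdown 4 than in any other tumour. The next highest values were 4.51 CPM for Folr1 in knockdown 7, 4.63 CPM for Slc4a5 in knockdown 5 and 2.46 CPM for Clic6 in control 1. Ttr at 0.274, Kl at 0.411, Kcne2 at 0.137 and Kcnj13 at 0.137 CPM were not highest in knockdown 4. The part of these cells in the Otx2 counts was not tested. The 6 retina markers summed to under 1 CPM, at 0.215 to 0.995 CPM in knockdown tumours and 0.922 and 0.438 CPM in controls, and none passed the filter.

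Pax6 (mm9 chr2:105509053-105543317), a factor with a paired domain and a homeodomain that acts in the eye and in cortical radial glia, had 23.5 CPM in the lowest knockdown tumour, 30.8 CPM at the median and 48.9 CPM in the highest, against 31.6 and 50.3 CPM in the controls. The values overlapped, 5 knockdown tumours being below both controls and 4 between them. The log2 fold change was -0.29 ± 0.27 (SE), -0.59 without control 1 and 0.08 without control 2. Elp4, a subunit of the Elongator complex whose model overlaps that of Pax6 by 5841 bases, differed by 0.08 ± 0.21 in log2 (edgeR adjusted p = 0.8). Pax6os1, an antisense model that shares 1435 bases with Pax6, had 9 counts over the knockdown tumours and 0 in both controls.

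Of the 9 factors, 6 passed the filter on low counts, and Six6, Otx2 and Emx1 did not. Dmrta2 and Six3 were past the adjusted threshold, 2 of the 6, where 23.3% of all tested genes were. Six3 was not past it without control 2 (log2 fold change -2.03 ± 0.60), while Emx2 was past it without control 2 (-1.27 ± 0.35) and Lhx2 in DESeq2 (1.63 ± 0.62). The same 2 of 6 did not overlap between the groups, where 27.2% of all tested genes did not. Because the factors were chosen with this contrast known, nothing is read from these counts. Within 200 kb of the 9 factors lay 40 other gene models, of which 24 were tested and 4, or 16.7%, were called. Ehbp1, 2931 bases from Otx1, rose in knockdown, 1.92-fold or 0.94 ± 0.20 in log2 (edgeR adjusted p = 0.0068). Six3os1.1, Slc18a2 and Pdzd8 fell, the last 2 near Emx2, with log2 fold changes of -0.82 ± 0.24 and -0.43 ± 0.12. Without control 1 the calls of Slc18a2 and Pdzd8 were lost, and without control 2 those of Ehbp1 and Slc18a2 (adjusted p from 0.077 to 0.36). The count was 2 without either control and 7 without knockdown 7.

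**Figure D3:**
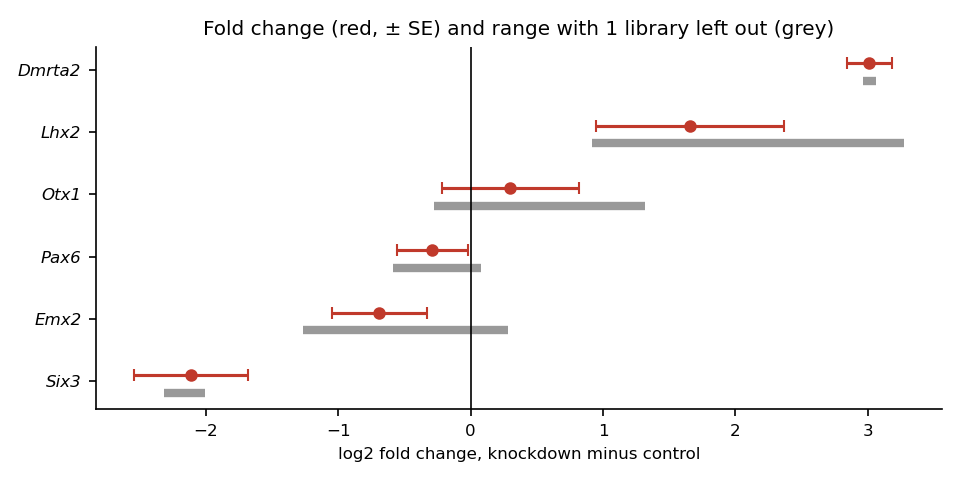
Log2 fold change, knockdown over control, of the 6 factors that passed the filter on low counts, as points with SE in red, and the range with any 1 library left out in grey. Dmrta2 (2.96 to 3.06), Six3 (-2.32 to -2.01) and Lhx2 (0.92 to 3.27) keep their direction, and the grey ranges of Otx1, Emx2 and Pax6 cross 0.

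The factors differed in how much they varied among the 9 knockdown tumours. This is a description, since the spread within a group also enters the contrast that chose them. Dmrta2 had a coefficient of variation of 5.69%, which is below the 6.59% that counting error alone gives at its depth. Of 12266 genes compared, 0.978% had a smaller one, and the median gene had 17.9%. Pax6 at 26.1% and Emx2 at 29.2% were above the median gene. Lhx2, at 61.1%, was more variable than 94.0% of genes, a value that rests in part on knockdown 4. Without that tumour, an alternative chosen after seeing the data, it was 38.7%, above 84.3% of genes. Dmrta2 lay between 4.25% and 6.08% with any 1 knockdown tumour left out.

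**Figure D4:**
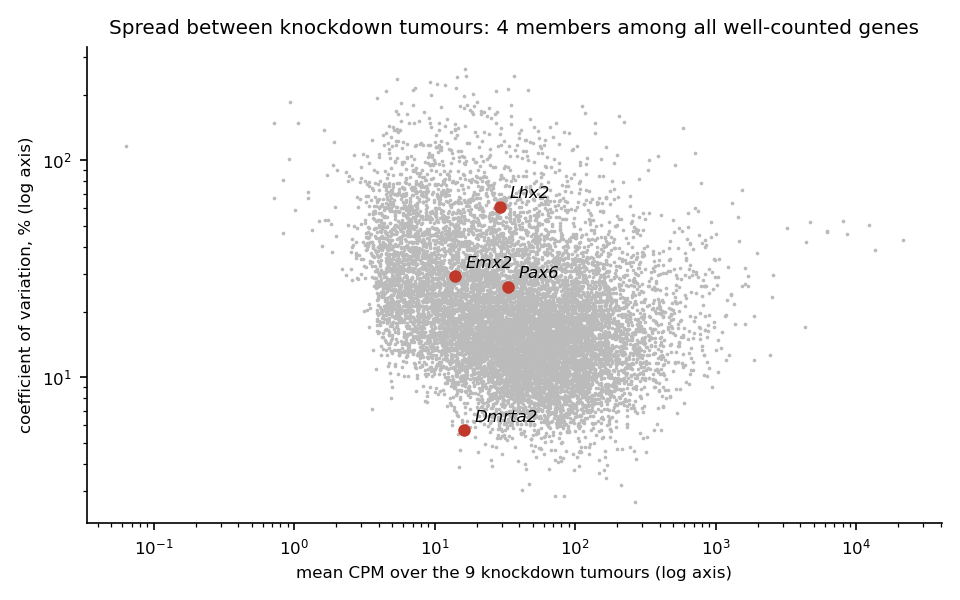
Coefficient of variation among the 9 knockdown tumours against mean CPM, both on log axes, for 12266 genes in grey and 4 of the factors in red. Dmrta2 (5.69%) lies at the lower edge of the cloud, and Lhx2 (61.1%, or 38.7% without knockdown 4) lies high in it.

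For the 5 factors with enough counts, the relation to the level of Ezh2 left in a knockdown tumour passed in 0 of 5 tests, both with adjusted and with unadjusted exact permutation p. Pearson's r with Ezh2 lay between -0.16 for Lhx2 and 0.57 for Pax6 over 9 tumours, and for Pax6 the exact permutation p was 0.12, the adjusted p 0.56 and Spearman's rho 0.55 (exact permutation p = 0.13). Without the 2 tumours farthest from the median of Ezh2, r for Pax6 was 0.20. With any 1 knockdown tumour left out it ran from 0.35 to 0.78, the highest without knockdown 7 (exact permutation test, adjusted p = 0.12). Among 10 pairs of factors 0 passed adjustment and 1 had an unadjusted p under 0.05. Otx1 and Lhx2 had the strongest relation, with r = 0.76 (exact permutation p = 0.016, adjusted p = 0.16) and rho = 0.70 (exact permutation p = 0.043, adjusted p = 0.43), and r was 0.46 without knockdown 4 and knockdown 7. The other 9 pairs had r between -0.37 and 0.25. As a description over the 9 knockdown tumours, the genes whose profile was most like that of Six3, of 11246 ranked, were Pygo2 (r = 0.954), Ppp6r3 (r = 0.917) and Ubxn11 (r = 0.915). Six3 had only 2 to 14 counts in these tumours, and its coefficient of variation was 48.4%, where counting error alone gives 39.8%. For Dmrta2 they were Rdh5 (r = 0.893), Supv3l1 and Mdm2 (r = 0.855 each), although the spread of Dmrta2 was no larger than counting error.

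Other genes of the same patterning network were called at a share near that of all genes. Of 152 genes in 6 lists, 100 were tested, 15 were higher and 11 lower in knockdown, so that 26.0% were called, against 23.3% of all tested genes (10.3% higher and 13.0% lower), with a median log2 fold change of 0.35 against 0.07 over all tested genes. The other forebrain factors had 5 higher and 3 lower of 29. Vax2, a factor of the ventral optic vesicle, and Nr2f2, which encodes COUP-TFII, were higher by 4.74 ± 0.96 and 1.28 ± 0.33 on the log2 scale, Vax2 on only 3 control counts (edgeR adjusted p = 0.0053 and 0.016). Sall3 and the cortical layer factor Bcl11b were lower, at -1.87 ± 0.51 and -1.55 ± 0.47 (edgeR adjusted p = 0.022 and 0.035). Of 29 signals and antagonists 3 were higher and 6 lower. The FGF antagonist Spry1 averaged 408 ± 71.7 CPM in knockdown, against 157 and 164 CPM in controls (edgeR adjusted p = 0.0011), and the secreted Wnt antagonist Frzb 28.8 ± 12.3 CPM, against 3.46 and 1.38 CPM (edgeR adjusted p = 0.0047). Wnt7b, a cortical Wnt ligand, averaged 47.9 ± 26.3 CPM in knockdown, against 767 and 291 CPM in controls (edgeR adjusted p = 0.0009), and Sfrp2, a secreted Wnt modulator, 0.318 ± 0.165 CPM, against 2.77 and 2.94 CPM (edgeR adjusted p = 0.00051). The midbrain and hindbrain factors had 1 of 10 higher, Egr2, by 1.63 ± 0.44 in log2 (edgeR adjusted p = 0.02).

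Among relatives and partners of the 9 factors, the sine oculis, EYA and DACH genes had 3 higher and 1 lower of 17, or 23.5%, the share called over all tested genes being 23.3%. Six5 was higher by 0.85 ± 0.24, Dach2, on 2 control counts, by 4.09 ± 1.07, and Eya4 was lower, at -1.65 ± 0.53 in log2 (edgeR adjusted p = 0.025, 0.018 and 0.041). The LIM homeodomain relatives and their partners had 4 higher and none lower of 13, or 30.8%, among them Lhx9, at 13.0 ± 5.65 CPM in knockdown, against 0.922 and 2.07 CPM in controls (edgeR adjusted p = 0.0098). Isl1, which is also counted in the list of other forebrain factors, was higher by 4.03 ± 1.04 on 5 control counts (edgeR adjusted p = 0.017). The DMRT, OTX and PAX relatives had 3 tested of 17, and the closest relative of Dmrta2, Dmrta1, was lower at -0.83 ± 0.25 (edgeR adjusted p = 0.033), opposite in sign to Dmrta2. Of the 15 genes named in these lists, Spry1, Sfrp2 and Wnt7b kept their call without either control. Without control 1 the calls of Sall3, Bcl11b, Egr2, Six5, Lhx9 and Dmrta1 were lost, and without control 2 those of Vax2, Nr2f2, Bcl11b, Egr2, Frzb, Dach2, Six5, Eya4 and Isl1 (adjusted p from 0.059 to 0.87). Bcl11b, Eya4 and Dmrta1 also lost theirs without 1 of the knockdown tumours (adjusted p from 0.05 to 0.066), and Eya4 and Lhx9 in limma-voom. Over all 6 lists the 26 calls became 12 without control 1 and 10 without control 2.

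**Figure D5:**
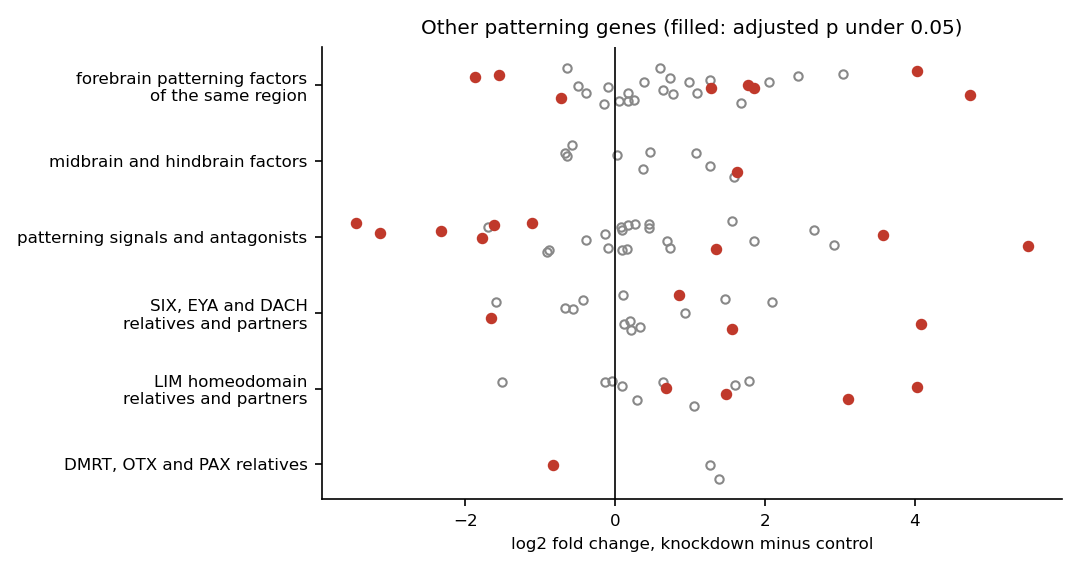
Log2 fold change, knockdown over control, of the tested genes in 6 lists of other patterning genes, 1 point per gene in each list, filled where the edgeR adjusted p was under 0.05. Isl1 is in both the forebrain and the LIM list and is drawn in each. Of 100 genes 15 are filled above 0 and 11 below it, and the filled points of the LIM list all lie above 0.

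Markers of some of the cell types that a tumour can hold differed between the groups, and the counts stand beside 23.3% called over all tested genes. Of 7 neural stem cell markers tested 3 were lower in knockdown, among them Nes and Vim, and of 8 oligodendrocyte markers 3 were higher, among them Mbp, and 2 lower, Olig1 and Olig2. Of 7 neuron markers 2 were higher, Snap25 and Rbfox3, of 6 cortical excitatory neuron markers 1, Camk2a, and of 7 GABA neuron markers 2, Dlx1 and Dlx2, which are also forebrain patterning genes. Folr1 was the only one higher of 6 choroid plexus markers, and none of 7 astrocyte markers or 3 ependyma markers was called, with Gfap, Aldh1l1, Tmem212 and Rarres2 at adjusted p from 0.09 to 0.76. Of 6 microglia markers 3 were lower, among them Csf1r and Tmem119, and of 6 endothelium markers Cldn5 was higher and Flt1 lower. All 7 neutrophil markers, among them Ngp and Mpo, were lower, summing to 2.45 to 8.94 CPM in knockdown tumours, against 206 and 61.5 CPM in controls. Of the 17 marker genes named as changed, Nes, Mbp, Flt1, Ngp and Mpo kept their call without either control. Dlx1, Dlx2, Csf1r, Tmem119 and Cldn5 lost their call without 1 of the knockdown tumours (edgeR adjusted p from 0.05 to 0.072). In limma-voom the calls of Snap25, Camk2a, Folr1, Csf1r and Cldn5 were lost. Cldn5 also lost its call with RLE factors and with no filter on low counts. The part of these cell types in the levels of the 9 factors was not tested.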

How the data were processed

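Read counts per Ensembl gene in 11 tumours were deposited as 1 table of whole numbers, with symbols and mm9 coordinates. The submitters' processing notes name TopHat 1.4.0, HTSeq and mm9; the sources used here give neither settings nor the use of strand. Knockdown was compared with control in R 4.3.3 with edgeR 4.0.16 (filterByExpr, which kept 16241 genes with 99.9% of counts; TMM factors from 0.9192 to 1.077; quasi-likelihood test, Benjamini-Hochberg adjustment over all tested genes, threshold 0.05). The SE of an edgeR log2 fold change was derived, as its absolute value divided by the square root of the quasi-likelihood F statistic. DESeq2 1.42.0 and limma 3.58.1 (voom) were alternatives. CPM uses TMM-scaled library sizes, and a count of 3 corresponds to 0.161 to 0.272 CPM. Correlations and the exact test of Ezh2 used log2(CPM + 1). Exon lengths and strands came from GENCODE M21, matched by Ensembl ID. The fits were tested on simulated data.

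The 9 members, the gene lists and the tests were chosen with earlier results of these data known. Named from each list were the called genes with the smallest p-values in each direction, every gene model that overlaps a member, every called model within 200 kb, and the 3 genes most alike Six3 and Dmrta2. Faf1, 3010003L10Rik, Emx2os, Six2, Ttr, Aqp1, Slc4a5, Clic6, Kl, Kcne2 and Kcnj13 were named after their values were seen. Of 245 listed symbols, 239 matched directly and 2 by a current symbol; 4 did not match. Some listed genes are not reported here by name. Replicate pairs in a group differed beyond counting noise (smallest chi-square per degree of freedom 11.5).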

Additional observations from a re-analysis of the deposited data

Results flagged for a closer look

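Among 50 genes checked over the 9 knockdown tumours on the log2(CPM + 1) scale, 5 had a tumour that stood apart from the rest by Dixon's criterion for 9 samples (a gap over 0.493 of the range), and chance gives about 5% of genes such a tumour. Otx2 was at 2.12 CPM in knockdown 4, and the next highest tumour was at 0.636 CPM. Six3os1.1, the noncoding model that overlaps Six3, was at 2.32 CPM in knockdown 7, and the next lowest tumour was at 5.7 CPM. Lhx9 was at 2.45 CPM in knockdown 9, with the next lowest at 8.07 CPM. Among the markers, Aldh1l1 was at 24.2 CPM in knockdown 7, with the next highest at 12.7 CPM, and Csf1r at 33.9 CPM in knockdown 3, with the next lowest at 61.3 CPM.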

How the results depend on the processing

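With 2 controls, leaving out 1 of them moved most counts, and the cause was not tested. Of all genes 3790 were called, against 1290 without control 1 and 1750 without control 2; with any 1 library left out the range was 1290 to 4269. Of the other patterning genes 26 were called, with a range of 10 to 29, and near the members 4, with a range of 2 to 7. Without knockdown 7 and knockdown 9 the count near the members was 7. Replicate numbers did not pair the tumours (correlation of deviations -0.142 and 0.017). With the number as a block the counts were 686, 9 (8 higher) and 2. Only numbers 1 and 2 occur in both groups, so the contrast with the block rests on these tumours alone, and lost calls there partly reflect fewer tumours. The share of higher calls among the patterning genes was 57.7%, 88.9% with the block, 65.7% in DESeq2 and 20.0% without control 2. The log2 (CPM + 1) difference of Ezh2 was -1.68, from -1.81 to -1.57 with any 1 library left out; without 1 control (-1.79 and -1.58) the exact p was 0.1, the smallest possible. The ranges of fold changes with any 1 library left out were -2.32 to -2.01 for Six3, -0.28 to 1.32 for Otx1, -1.27 to 0.28 for Emx2, 0.92 to 3.27 for Lhx2, 2.96 to 3.06 for Dmrta2 and -0.59 to 0.08 for Pax6; Six3 was not past the threshold without control 2 or with the block (-2.14). Pearson's r of Ezh2 with Lhx2 ran from -0.48 to 0.01, with Emx2 from -0.15 to 0.58, and with Pax6 from 0.35 to 0.78, when 1 tumour was left out; the r with Emx2 was -0.11 without knockdown 7 and 9. Rarres2 turned to -0.14 in limma-voom. No correlation passed adjustment under any alternative run. Of 36 named calls, the block lost 26, limma-voom 7, no filter 1, RLE factors 1 and DESeq2 0. Depth limits Six6, Emx1 and Otx2, where 0 or 1 count in a control sets the ratio.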

Other observations

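Knockdown 7 had the lowest level among the 9 knockdown tumours for Six2 (0.976 CPM, next 4.38 CPM), Six3 (0.122, next 0.329), Six4 (15.3, next 24.5), Six5 (20.7, next 21.9) and Six3os1.1 (2.32, next 5.7), which is 5 of the 5 genes given here. It was also the lowest for 3 of the 6 tested members, Six3, Otx1 and Lhx2, and for 3002 of all 16241 tested genes. This was noticed after the values were seen and was not tested. Knockdown 4 was the highest for Otx1, Otx2 and Lhx2, and knockdown 9 for Six3 and Emx2.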
